A study of Mus musculus with 8 samples.

Results

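The aldehyde dehydrogenases, alcohol dehydrogenases and aldo-keto reductases of mouse liver were taken as every gene on the array whose platform symbol begins with Aldh, Adh or Akr followed by a digit, without Akr1b8. There were 37 such genes on 58 probes, made up of 20 aldehyde dehydrogenases, 4 alcohol dehydrogenases and 13 aldo-keto reductases, of 16593 genes with a symbol on 25697 probes. Livers of Balb/c mice aged 2 months were profiled on 8 Illumina bead arrays, which read RNA by the brightness of labelled copies bound to gene probes. The groups were wild-type mice given vehicle (1 array), IL-4/IL-13-/- mice given vehicle (1 array), wild-type mice given carbon tetrachloride (CCl4; 3 arrays) and IL-4/IL-13-/- mice given CCl4 (3 arrays). CCl4 is a solvent that injures hepatocytes near the central vein, where cytochrome P450 enzymes turn it into a radical, and IL-4 and IL-13 are the type 2 cytokines that the knockout mice lack. The labels used here do not state the dose, the time after CCl4, the sex of the mice, how the knockout was made or whether each array held a separate animal. The p-values therefore measure the spread between arrays, which may be technical. The comparisons address how CCl4 changed these enzymes and whether their levels after CCl4 differed without IL-4 and IL-13.

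These families carry much of the liver's handling of alcohols and carbonyls. Alcohol dehydrogenases oxidise alcohols such as ethanol and retinol to aldehydes or ketones, aldehyde dehydrogenases oxidise the aldehydes to acids, and aldo-keto reductases run in the opposite direction, reducing aldehydes and ketones to alcohols, with steroids, bile acid precursors, sugars and reactive lipid aldehydes among their substrates. Several aldehyde dehydrogenases also serve fixed steps of folate, proline, valine, tryptophan and GABA metabolism.

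The promoters of 3 members are shown because the results turn on them: Akr1c6, the only member that passed the test between genotypes, Akr1c18, with the largest increase with CCl4 among members, and Aldh1l1, with the largest decrease. Each runs from 250 bases before to 50 bases after the start of the gene, 5' to 3' on the gene's strand, from RefSeq on build GRCm38.p6. Capitals mark matches, on either strand, to CCAAT or TATAAA.
Akr1c6, chr13:4434093-4434392, plus strand: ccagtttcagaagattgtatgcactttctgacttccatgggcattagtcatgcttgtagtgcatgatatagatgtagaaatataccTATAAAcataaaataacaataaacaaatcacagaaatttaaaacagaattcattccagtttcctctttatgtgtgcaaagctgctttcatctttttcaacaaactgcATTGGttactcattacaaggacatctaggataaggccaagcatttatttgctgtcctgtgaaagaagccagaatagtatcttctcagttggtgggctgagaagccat
Akr1c18, chr13:4150597-4150896, minus strand: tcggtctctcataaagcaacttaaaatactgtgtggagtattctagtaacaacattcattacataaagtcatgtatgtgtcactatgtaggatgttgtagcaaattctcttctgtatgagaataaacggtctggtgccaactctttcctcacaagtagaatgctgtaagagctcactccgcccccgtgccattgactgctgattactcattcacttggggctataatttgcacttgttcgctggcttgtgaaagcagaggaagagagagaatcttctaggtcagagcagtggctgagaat
Aldh1l1, chr6:90550543-90550842, plus strand: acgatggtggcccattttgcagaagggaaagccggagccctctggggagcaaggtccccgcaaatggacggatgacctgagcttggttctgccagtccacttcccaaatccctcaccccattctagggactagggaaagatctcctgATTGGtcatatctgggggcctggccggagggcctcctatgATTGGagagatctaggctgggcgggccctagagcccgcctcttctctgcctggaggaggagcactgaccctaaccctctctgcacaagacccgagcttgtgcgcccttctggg
Akr1c6 held TATAAA at base -164 and CCAAT, on the other strand, at base -57, Aldh1l1 held CCAAT on the other strand at bases -103 and -63, and Akr1c18 held neither, counting back from the gene's start. The table gave a promoter for 31 of the 37 members and for 27025 genes in all. CCAAT was in 18 of the 31 and in 37.9% of all promoters, and TATAAA in 4 of 31 and 14.2% of all. The other motifs searched on both strands were TTCNNNGAA (STAT), in 4 members and 8.47% of all promoters, TGACTCA (AP-1), in 2 and 5.17%, TGACNNNGC (the core of the antioxidant response element), in 4 and 12.5%, and GTTAAT (a core of the HNF1 site), in 2 and 7.2%. The motifs were chosen after the expression values were seen, the 5-letter CCAAT and 6-letter TATAAA do not overlap in these sequences, and a match describes letters only. In the RefSeq gene order, chromosome 13 carries Akr1c14, Akr1c18, Akr1c13, Akr1c19, Akr1c12, Akr1c6, Akr1c20 and Akr1c21 in that order, so the member with the largest increase lies beside Akr1c14, which fell. The order Adh7, Adh1, Adh6a, Adh6b, Adh6-ps1, Adh4 and Adh5 is on chromosome 3. Probes of related neighbours may bind each other's RNA, and neither gene nor probe sequences were compared here, so values of single Akr1c members carry that uncertainty.

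Of the 37 members, 24 could be tested, because at least 1 of their probes was detected (detection p below 0.01) on every array of at least 1 group, and the same filter kept 7257 genes. These were 11 aldehyde dehydrogenases, 3 alcohol dehydrogenases and 10 aldo-keto reductases. The 13 left out were Adh7, the stomach and epithelial alcohol dehydrogenase, Aldh18a1, Aldh1a2, Aldh1a3, Aldh1a7, Aldh1l2, Aldh3a1, Aldh3b3, Aldh7a1, Aldh9a1, Akr1c20, Akr1c21 and Akr1cl. Among them only Aldh18a1, which makes the precursor of proline and ornithine, and Aldh1a2, a retinal dehydrogenase, were detected on any array. A member that entered through a single group had to be high there, so the counts that follow describe the tested members and not the families as a whole.

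Arrays had median raw intensities of 60.9 to 76.9 and 8899 to 9821 detected probes, and the knockout CCl4 arrays (63.6 to 66.9) were dimmer than the wild-type CCl4 arrays (68.5 to 76.9). The probes for Il4 and Il13 were detected on no array, with lowest detection p of 0.272 and 0.0602, so they did not check the genotype labels. Among hepatocyte markers, Ttr and Apoa1 were between 13.75 and 14.29 on the log2 scale on all 8 arrays, whereas the probe for albumin (Alb) was close to background, between 5.68 and 6.43. Wild-type CCl4 replicate 2 was the highest of its group for 17 of the 24 tested members and replicate 3 for 0, where each replicate was the highest for 33 to 33.6% of all genes. The part of array brightness in the genotype comparison was not tested. In whole liver, fewer cells of a type and less RNA per cell cannot be told apart.

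CCl4 was compared with vehicle as the mean of the responses in both genotypes, 6 arrays against 2, with limma on log2 intensities and Benjamini-Hochberg adjustment over 7257 genes. At an adjusted p below 0.05, 13 of the 24 members changed, against 37.5% of all genes tested. Of the 13, 3 rose (background 18.9%) and 10 fell (background 18.6%). The 3 that rose include Akr1c18, which the detection filter admitted through the CCl4 arrays alone, so its rise is given as a description. Akr1c18 is also among the members counted as risen in each genotype alone. The CCl4 arrays did not overlap the vehicle arrays for 11 members (background 38.8%), with 3 higher (background 19%) and 8 lower (background 19.8%). The median difference over the 24 members was -0.30 on the log2 scale, against -0.02 over all genes, and the fitted differences of members ran from -1.64 to 3.52. By family, 1 aldehyde dehydrogenase rose and 6 fell, 1 alcohol dehydrogenase fell, and 2 aldo-keto reductases rose and 3 fell. In wild type alone 8 members changed (background 24%; 3 rose and 5 fell, backgrounds 12.4% and 11.6%), and in the knockout alone 8 changed (background 25.8%; 2 rose and 6 fell, backgrounds 13% and 12.8%), each from 3 arrays against 1. The wild-type count was 14 without wild-type CCl4 replicate 2, when Akr1c19, Akr1d1, Aldh1b1, Aldh1l1, Aldh4a1 and Aldh8a1 also passed, and the knockout count was 4 without knockout CCl4 replicate 1 and 5 without either of the other knockout CCl4 arrays. Each vehicle group held 1 array, which was assumed to vary like the CCl4 arrays. Without either vehicle array the mean response becomes the other genotype's response, and 8 members then changed, so both single-genotype responses are given beside each member.

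**Figure D1:**
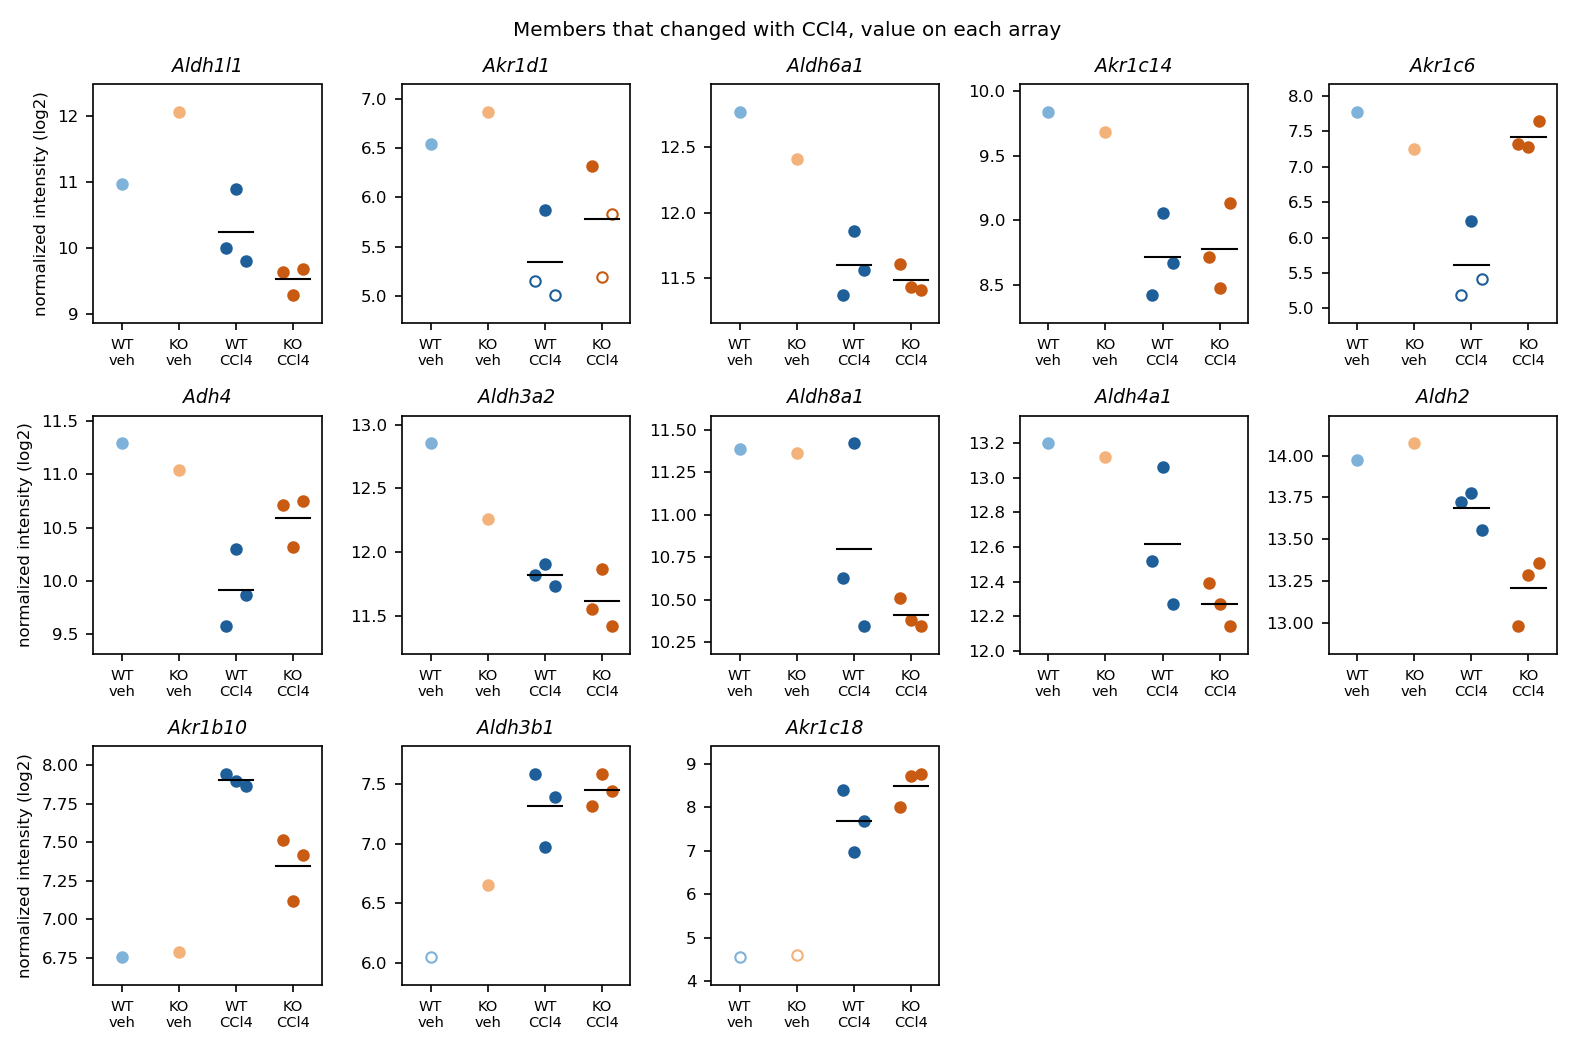
Normalized intensity (log2) of the 13 members that changed with CCl4, with 1 panel per gene and 1 point per array, grouped as wild-type vehicle, knockout vehicle, wild-type CCl4 and knockout CCl4. Filled points were detected, open points were not, and bars mark the mean of 3 arrays; Akr1c18 was undetected on both vehicle arrays and lay between 6.98 and 8.77 after CCl4.

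Among the aldehyde dehydrogenases, Aldh1l1, the formyltetrahydrofolate dehydrogenase of folate metabolism, had the largest decrease. Its log2 intensity was 10.98 in the wild-type vehicle array and 12.06 in the knockout vehicle array, 10.00, 10.90 and 9.81 after CCl4 in wild type, and 9.64, 9.28 and 9.68 after CCl4 in the knockout. Every CCl4 array was below both vehicle arrays, with wild-type replicate 2 just under the wild-type vehicle value. The mean response was -1.64 ± 0.26 (SE; adjusted p = 0.000582), made up of -0.74 ± 0.36 in wild type (adjusted p = 0.159) and -2.53 ± 0.36 in the knockout (adjusted p = 0.000815). Part of the gap between genotypes lay in the vehicle pair, which differed by 1.08. Without wild-type CCl4 replicate 2 the wild-type response was -1.07 with an adjusted p of 0.00861. These values are those of its brightest probe. Adjusted over all probes, 2 of its 4 probes passed in wild type, at -1.42 (adjusted p = 0.0127) and -1.34 (adjusted p = 0.0151), and the fourth gave -0.75 (adjusted p = 0.0792). All 4 passed in the knockout, at -2.53 to -1.75. The fourth probe, which gave the -1.75, was detected on 0 of 3 knockout CCl4 arrays, so its level there is only a bound.

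Of the 4 members of amino acid breakdown tested, 3 fell (background 18.6%). In wild type alone 1 of the 4 fell (background 11.6%), and in the knockout alone 2 fell (background 12.8%). Aldh6a1, the methylmalonate semialdehyde dehydrogenase of valine breakdown, was at 12.77 and 12.41 in the wild-type and knockout vehicle arrays, 11.37, 11.86 and 11.56 in wild type after CCl4, and 11.61, 11.43 and 11.41 in the knockout after CCl4. All 6 CCl4 arrays lay below both vehicle arrays, and the response was -1.05 ± 0.17 (SE; adjusted p = 0.000691), with -1.17 in wild type (adjusted p = 0.0051) and -0.93 in the knockout (adjusted p = 0.0161). Aldh4a1, which acts in proline breakdown, stood at 13.20 and 13.12 with vehicle, 12.52, 13.06 and 12.27 in wild type after CCl4, and 12.39, 12.27 and 12.14 in the knockout after CCl4. Its groups did not overlap, although wild-type replicate 2 was only just under the vehicle arrays. The response was -0.71 ± 0.20 (SE; adjusted p = 0.0171), with -0.58 in wild type (adjusted p = 0.162, and 0.0257 without wild-type CCl4 replicate 2) and -0.85 in the knockout (adjusted p = 0.0494, lost without any 1 of the knockout CCl4 arrays or wild-type CCl4 replicate 1). Aldh8a1, an enzyme of the kynurenine route of tryptophan breakdown, ranged from 11.36 to 11.38 with vehicle and from 10.34 to 11.42 after CCl4, the highest value being wild-type replicate 2. It fell by 0.77 on the log2 scale (SE 0.24, adjusted p = 0.027), with an adjusted p of 0.234 in wild type and 0.061 in the knockout (0.015 and 0.00815 without wild-type CCl4 replicate 2), and of 0.0565 for the mean response without wild-type CCl4 replicate 1. Its other 2 probes passed in the knockout, at -1.24 (adjusted p over all probes 0.00995) and -1.38 (0.00575), and neither passed in wild type. Aldh5a1, the succinic semialdehyde dehydrogenase of GABA breakdown, gave -0.01 ± 0.17 (adjusted p = 0.959), with 0.49 in wild type and -0.52 in the knockout.

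Of the 2 members for lipid-derived aldehydes tested, 1 fell and 1 rose (backgrounds 18.6% and 18.9%). Aldh3a2, the fatty aldehyde dehydrogenase, was at 12.86 and 12.26 with vehicle in wild type and knockout, 11.82, 11.90 and 11.74 in wild type after CCl4, and 11.55, 11.87 and 11.41 in the knockout after CCl4. The 6 CCl4 arrays were all lower than both vehicle arrays, and the response was -0.84 ± 0.16 (SE; adjusted p = 0.00229), with -1.04 in wild type (adjusted p = 0.00839) and -0.65 in the knockout (adjusted p = 0.0622, and 0.0465 without knockout CCl4 replicate 2). Aldh3b1, which oxidises aldehydes from lipid peroxidation, was at 6.04 and 6.66 with vehicle, 7.58, 6.97 and 7.39 in wild type after CCl4, and 7.32, 7.58 and 7.44 in the knockout after CCl4. It was not well above background in the wild-type vehicle array, and all CCl4 arrays were above both vehicle arrays. The response was 1.03 ± 0.18 (SE; adjusted p = 0.00131). In wild type it was at least 2.26-fold higher after CCl4 (adjusted p = 0.00511), and in the knockout the difference was 0.79 ± 0.26 (adjusted p = 0.0442), which no longer passed without any 1 of the knockout CCl4 arrays or without wild-type CCl4 replicate 3.

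Of the enzymes for acetaldehyde and retinal, Aldh2 fell and its relatives did not pass the test. Aldh2, the mitochondrial enzyme that clears acetaldehyde, was at 13.97 and 14.08 with vehicle, 13.72, 13.77 and 13.55 in wild type after CCl4, and 12.98, 13.29 and 13.36 in the knockout after CCl4. From high to low, the arrays were ordered vehicle, wild-type CCl4 and knockout CCl4, with no overlap. The response was -0.58 ± 0.16 (SE; adjusted p = 0.0163), with -0.29 in wild type (adjusted p = 0.386) and -0.87 in the knockout (adjusted p = 0.018, and 0.0511 without knockout CCl4 replicate 1). Aldh1b1, a mitochondrial relative, gave 0.48 ± 0.27 (adjusted p = 0.186), with 1.15 in wild type (adjusted p = 0.051, and 0.0359 without wild-type CCl4 replicate 2) and -0.18 in the knockout. Aldh1a1, the cytosolic retinal dehydrogenase, gave -0.30 (adjusted p = 0.174), and Aldh16a1, which lacks a settled role, gave 0.02 (adjusted p = 0.94). Aldh1b1 ranged from 9.16 to 11.04 over the 8 arrays, with wild-type CCl4 replicate 2 the highest, Aldh1a1 from 11.57 to 12.53 and Aldh16a1 from 7.53 to 8.07.

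Of the 3 alcohol dehydrogenases tested, Adh4 fell and the other two did not pass the test. Adh4, the class II enzyme, was at 11.29 and 11.04 with vehicle in wild type and knockout, 9.57, 10.30 and 9.86 in wild type after CCl4, and 10.71, 10.31 and 10.75 in the knockout after CCl4. Wild-type CCl4 arrays were the lowest, knockout CCl4 arrays intermediate and vehicle arrays the highest, with no overlap. The response was -0.92 ± 0.21 (SE; adjusted p = 0.00534), with -1.38 ± 0.29 in wild type (adjusted p = 0.00614) and -0.45 ± 0.29 in the knockout (adjusted p = 0.276). Adh1, the main ethanol and retinol enzyme of mouse liver, ranged from 13.50 to 14.15 over the 8 arrays and gave -0.25 (adjusted p = 0.271). Adh5, which oxidises the glutathione adduct of formaldehyde, ranged from 10.72 to 11.22 and gave -0.20 (adjusted p = 0.354).

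The steroid branch of the aldo-keto reductases, with 6 members tested, held the largest increase and 3 of the decreases (backgrounds 18.9% up and 18.6% down). In wild type alone 1 of the 6 rose and 2 fell (backgrounds 12.4% and 11.6%). In the knockout alone 1 rose and 1 fell (backgrounds 13% and 12.8%). Akr1c18, which inactivates progesterone by reduction, was at 4.55 and 4.60 with vehicle, not well above background, 8.40, 6.98 and 7.68 in wild type after CCl4, and 8.01, 8.72 and 8.77 in the knockout after CCl4. It was detected on all 6 CCl4 arrays and on neither vehicle array, so it was tested only because it was high after CCl4. Its rise, which is the 1 counted above in each genotype, is therefore given as a description. Neither vehicle array was well above background, so each fold is a lower bound. Over both genotypes it was at least 3.99-fold higher. The bound was 2.93-fold for wild-type mice and 5.43-fold for knockout mice.

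Akr1c14, a hydroxysteroid dehydrogenase, was at 9.84 and 9.68 with vehicle, 8.42, 9.06 and 8.67 in wild type after CCl4, and 8.72, 8.48 and 9.13 in the knockout after CCl4. Every CCl4 array was lower than both vehicle arrays, and the response was -1.01 ± 0.21 (SE; adjusted p = 0.00365). It was made up of -1.12 in wild type (adjusted p = 0.0202, and 0.0824 without wild-type CCl4 replicate 1) and -0.91 in the knockout (adjusted p = 0.0469, lost without knockout CCl4 replicate 1, knockout CCl4 replicate 2 or wild-type CCl4 replicate 3). Akr1d1, the steroid reductase of bile acid synthesis, was at 6.54 and 6.86 with vehicle, 5.16, 5.87 and 5.01 in wild type after CCl4, and 6.31, 5.20 and 5.83 in the knockout after CCl4. It was detected on both vehicle arrays and on 1 of 3 arrays in each CCl4 group, so part of its CCl4 level is only a bound. The groups did not overlap, and the response was -1.14 ± 0.29 (SE; adjusted p = 0.0097), with -1.20 in wild type (adjusted p = 0.0529) and -1.08 in the knockout (adjusted p = 0.072). Both passed without wild-type CCl4 replicate 2 (adjusted p of 0.0133 and 0.0368). Without knockout CCl4 replicate 1 the knockout response was -1.35 (adjusted p = 0.03).

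Akr1c6, a liver hydroxysteroid dehydrogenase, was at 7.77 and 7.24 with vehicle in wild type and knockout, 5.18, 6.24 and 5.42 in wild type after CCl4, and 7.32, 7.28 and 7.65 in the knockout after CCl4. Wild-type CCl4 arrays were the lowest, and knockout CCl4 arrays overlapped the vehicle arrays. The mean response was -0.99 ± 0.25 (SE; adjusted p = 0.00925), made up of -2.16 ± 0.35 in wild type (adjusted p = 0.00147) and 0.17 ± 0.35 in the knockout (adjusted p = 0.745). Akr1c19 and Akr1c12, of the same gene cluster, gave -0.29 (adjusted p = 0.294) and -0.13 (adjusted p = 0.604), over ranges of 9.33 to 10.36 and 10.90 to 11.73 on the 8 arrays. Akr1c19 passed in wild type only when wild-type CCl4 replicate 2 was left out, at -0.86 (adjusted p = 0.0302).

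Of the aldo-keto reductases of sugars and simple aldehydes, Akr1b10, of the aldose reductase branch, rose. It was at 6.75 and 6.79 with vehicle, 7.94, 7.90 and 7.87 in wild type after CCl4, and 7.51, 7.12 and 7.42 in the knockout after CCl4. The groups were ordered vehicle, knockout CCl4 and wild-type CCl4, without overlap. The response was 0.86 ± 0.16 (SE; adjusted p = 0.00166), with 1.15 ± 0.22 in wild type (adjusted p = 0.00398) and 0.56 ± 0.22 in the knockout (adjusted p = 0.0886). Akr7a5, of the aflatoxin aldehyde reductase family, gave -0.42 ± 0.16 (adjusted p = 0.0557, and 0.0363 without wild-type CCl4 replicate 2) as the mean response. In the knockout Akr7a5 fell by 0.74 on the log2 scale (adjusted p = 0.0327, lost without any 1 of the knockout CCl4 arrays). Akr1a1, the general aldehyde reductase that also serves ascorbate synthesis in mice, gave -0.02 (adjusted p = 0.944), and Akr1e1 gave -0.18 (adjusted p = 0.414). Their ranges over the 8 arrays were 11.46 to 12.35 for Akr7a5, 11.65 to 12.54 for Akr1a1 and 9.01 to 9.59 for Akr1e1.

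**Figure D2:**
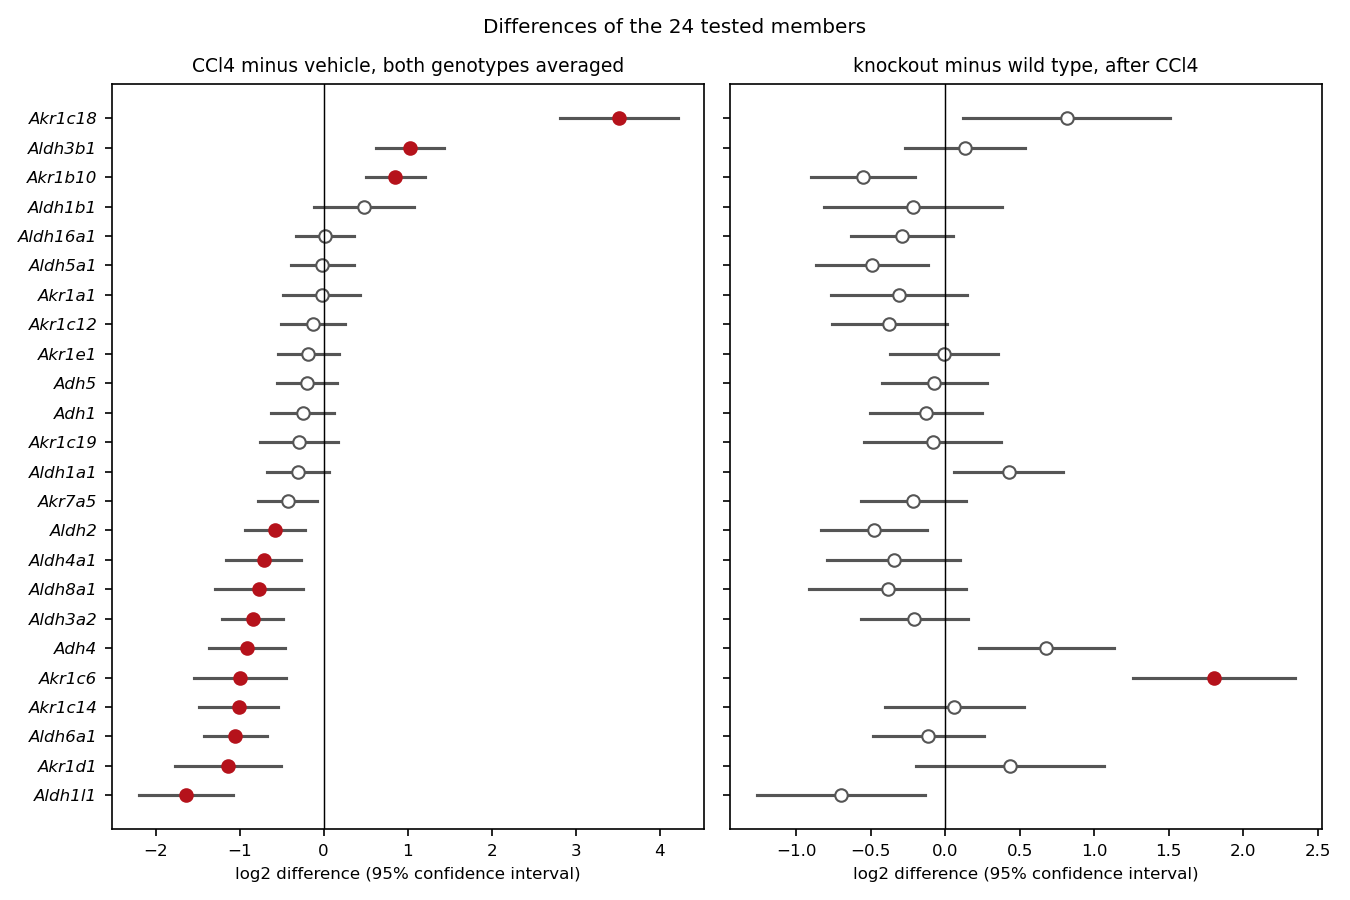
Log2 difference with its 95% confidence interval for the 24 tested members, for CCl4 against vehicle averaged over the genotypes (left) and knockout minus wild type after CCl4 (right), in order of the CCl4 difference. Filled points passed an adjusted p of 0.05; 13 did so for CCl4 and only Akr1c6 between genotypes.

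Between genotypes after CCl4, with 3 arrays each, Akr1c6 was the only member of the 24 that passed the test, against 6.49% of all genes (2.89% higher and 3.6% lower in the knockout). It was higher in the knockout by 1.81 ± 0.25 on the log2 scale (SE; 95% confidence interval 1.26 to 2.35, adjusted p = 0.00311), a 3.49-fold difference, and all 3 knockout arrays were above all 3 wild-type arrays. It was detected on 3 of 3 knockout and 1 of 3 wild-type CCl4 arrays, so the wild-type level is partly a bound. The difference ranged from 1.29 to 2.25 over 17 alternative settings. It passed in 16 of them and had an adjusted p of 0.0524 when undetected probes were tested too. With each array scaled to its median in place of the quantiles, 3 members passed, Akr1c6 higher and Akr1b10 and Aldh1l1 lower in the knockout.

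The median genotype difference over the 24 members was -0.17, against -0.01 over all genes, and 17 of the 24 were below 0. The arrays of the genotypes did not overlap for 9 members, a share of 37.5% against 30.3% of all genes. In the knockout, 3 were higher (background 14%) and 6 lower (background 16.3%). Besides Akr1c6, the higher ones were Adh4, at 0.68 ± 0.21 (adjusted p = 0.0745), and Aldh1a1, at 0.43 ± 0.17 (adjusted p = 0.144). The lower ones were Aldh1l1 by its brightest probe, at -0.70 ± 0.26 (adjusted p = 0.122), Akr1b10, at -0.55 ± 0.16 (adjusted p = 0.0606), Aldh5a1, at -0.49 ± 0.17 (adjusted p = 0.106), Aldh2, at -0.48 ± 0.16 (adjusted p = 0.103), Akr1c12, at -0.38 (adjusted p = 0.209), and Aldh16a1, at -0.29 (adjusted p = 0.27). The other 3 probes of Aldh1l1 gave -0.19, -0.27 and -0.50, with overlapping arrays, and the probe at -0.50 was detected on 0 of 3 knockout CCl4 arrays. None of these 8 members passed in the fit reported. Without background correction Adh4 passed, at 0.66 (adjusted p = 0.0467). With a trended, robust variance in limma Adh4 (adjusted p = 0.0412) and Aldh2 (adjusted p = 0.0493) passed. At an unadjusted p under 0.05, 8 of the 24 members differed (background 25.2%), with 4 higher (background 12.1%) and 4 lower (background 13.1%). Without 1 array, Adh4 passed without wild-type CCl4 replicate 2 (0.87, adjusted p = 0.0334) and Aldh5a1 passed without wild-type CCl4 replicate 3 (-0.64, adjusted p = 0.033). Akr1c18 was higher in the knockout by 0.81 ± 0.32 with overlapping arrays (adjusted p = 0.144), and the adjusted p of each remaining member was 0.315 or more.

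**Figure D3:**
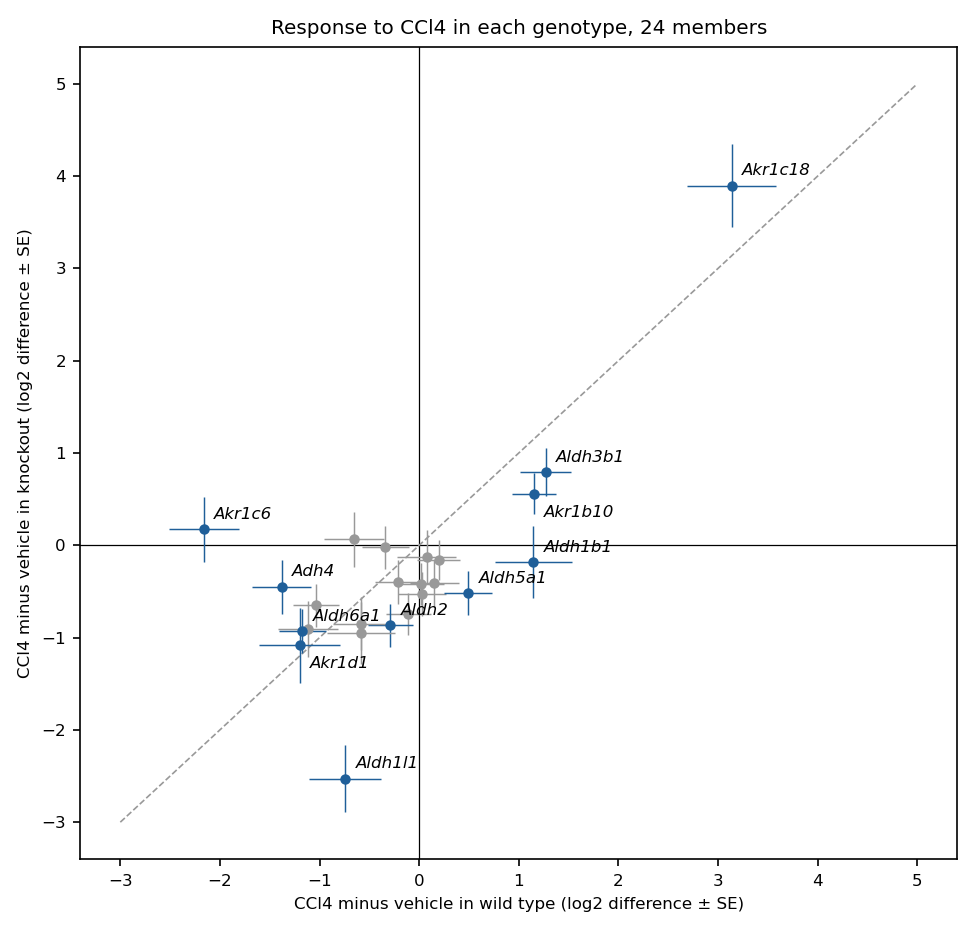
Response to CCl4 in the knockout (vertical axis) against that in wild type (horizontal axis), each as a log2 difference with its SE, for the 24 tested members; the dashed line marks equal responses and grey points are unnamed. Akr1c18 is high on both axes, Akr1c6 is at -2.16 in wild type and 0.17 in the knockout, and Aldh1l1, by its brightest probe, is at -0.74 and -2.53.

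The test of whether the response to CCl4 differed between genotypes called none of the 24 members, against 0.358% of all genes. At an unadjusted p under 0.05, 5 members differed, a share of 20.8% against 19.9% of all genes. The 2 largest differences were those of Akr1c6, at 2.33 ± 0.50 (adjusted p = 0.073), and Aldh1l1, at -1.79 ± 0.51 (adjusted p = 0.119). The Aldh1l1 value is that of its brightest probe, and its other 3 probes gave -1.07 to -0.85. Akr1c6 passed without wild-type CCl4 replicate 2, at 2.65 (adjusted p = 0.00763), and its adjusted p over all alternatives ran up to 0.172. Each response rests on 1 vehicle array per genotype.

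With vehicle, 1 array of each genotype was compared, which allows no test. At a log2 difference of 1 or more, 2 of the 24 members stood apart, against 4.04% of genes (2.08% higher and 1.96% lower): Aldh1b1, higher in the knockout by 1.11, and Aldh1l1, by 1.08. The Aldh1l1 value is that of its brightest probe. Its other 3 probes were at 11.20, 10.76 and 6.57 in the wild-type and 11.86, 11.57 and 7.06 in the knockout vehicle array, each less than 1 apart. At 0.5 or more, 8 members did, against 24% of genes, with 5 higher (background 11.7%) and 3 lower (background 12.4%). Higher in the knockout were also Aldh1a1 (0.61), Aldh3b1 (0.61) and Aldh5a1 (0.52), and lower were Akr1c19 (-0.81), Aldh3a2 (-0.60) and Akr1c6 (-0.53). Akr1c6 was thus lower in the knockout with vehicle and higher in the knockout after CCl4.

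Several members had more than 1 probe. Tested probe by probe, 20 of 37 member probes changed with CCl4, against 37.4% of all probes, and 1 of 37 differed between genotypes, against 6.13%. All 4 probes of Aldh1l1 fell, by differences of -1.88 to -1.25, as did all 3 probes of Aldh8a1 (-0.93 to -0.77) and both of Akr1c14 (-1.36 and -1.01). The -1.25 of Aldh1l1 came from a probe detected on 0 of 3 knockout CCl4 arrays, so it is partly a bound. For Aldh3b1 1 probe rose and the other tested probe gave 0.46 (adjusted p = 0.0675), and for Akr7a5 1 of 3 probes fell. None of the tested probes of Adh1, Adh5 or Akr1a1 passed.

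**Figure D4:**
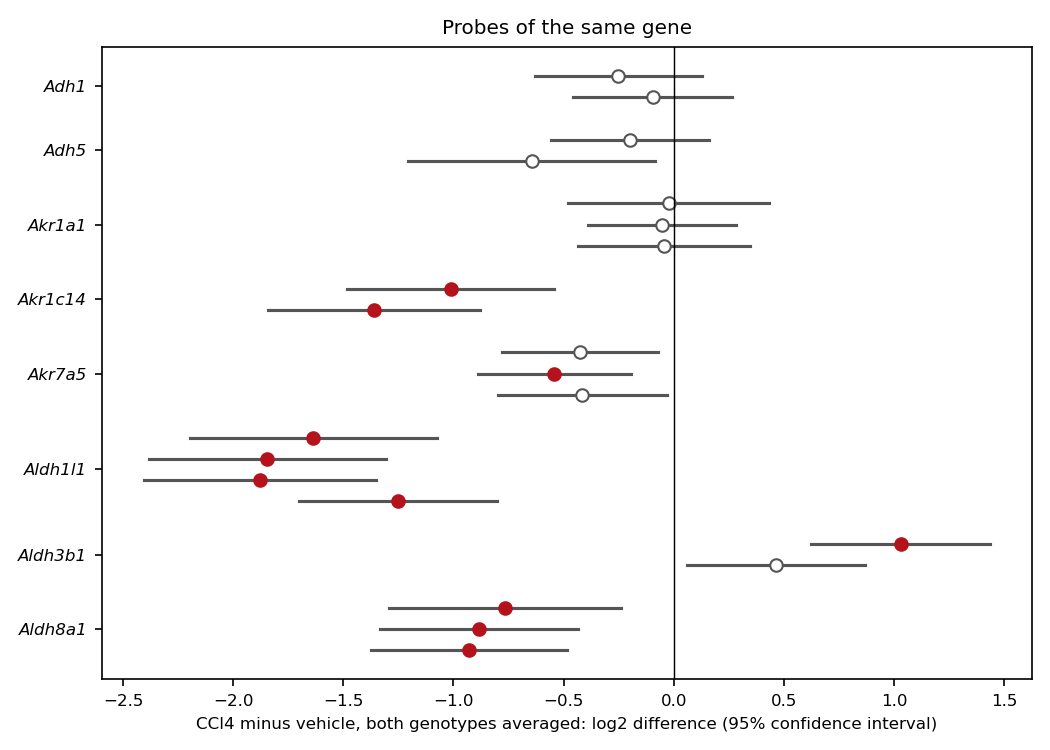
Log2 difference between CCl4 and vehicle, as the mean of both genotypes, with its 95% confidence interval for every tested probe of the 8 members with more than 1 tested probe. Filled points passed an adjusted p of 0.05; the 4 probes of Aldh1l1 lie between -1.88 and -1.25.

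Other genes of alcohol and retinoid handling were counted from a list of 59 genes outside the families, of which 38 were tested. With CCl4, 4 rose and 19 fell (backgrounds 18.9% and 18.6%), with a median of -0.49 against -0.02 over all genes. Without the wild-type vehicle array 1 rose and 15 fell, and without the knockout vehicle array 1 rose and 13 fell. The called genes with the smallest p were Rdh16, a retinol and steroid dehydrogenase, at -2.15 ± 0.20 (adjusted p = 1.94e-05), Acss2, which activates acetate, at -2.43 ± 0.27 (adjusted p = 5.81e-05), Khk, the fructose kinase, at -1.48 ± 0.17 (adjusted p = 9.60e-05), and Ces1e, a carboxylesterase, at -1.89 ± 0.25 (adjusted p = 0.000176). These were followed by Cyp26a1, which breaks down retinoic acid, and Rbp7, a retinol-binding protein. Cyp26a1 was at 6.38 and 5.18 with vehicle and from 4.50 to 4.85 after CCl4, and was detected only in the wild-type vehicle array. It was therefore tested only because that 1 array was high, and its fall in wild type, at least 1.44-fold, is given as a description. Rbp7 was at 4.62 and 4.93 with vehicle, not well above background, from 5.12 to 6.21 in wild type after CCl4 and from 7.07 to 7.49 in the knockout after CCl4. It was detected on 3 of 3 knockout and 1 of 3 wild-type CCl4 arrays and on neither vehicle array, so it was tested only because the knockout CCl4 arrays were high. As a description, it was at least 1.32-fold higher with CCl4 over both genotypes and at least 2.44-fold higher in the knockout.

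Among 4 further genes of the list, 3 fell with CCl4. Cyp2e1, the P450 that oxidises ethanol and activates CCl4, gave -1.46 ± 0.25 (adjusted p = 0.00103), catalase (Cat), a peroxisomal route of ethanol oxidation, gave -1.43 ± 0.21 (adjusted p = 0.00043), and Lrat, the retinol esterifying enzyme of stellate cells, gave -1.14 ± 0.18 (adjusted p = 0.000568). Lrat was detected on both vehicle arrays, on 1 of 3 wild-type and on 0 of 3 knockout CCl4 arrays, so its level after CCl4 is partly a bound, and in the knockout it was at least 1.41-fold lower. Rbp4, the retinol carrier of plasma, did not pass at 0.20 ± 0.16 (adjusted p = 0.344). Between genotypes after CCl4, 3 of the 38 were higher in the knockout and 0 lower (backgrounds 2.89% and 3.6%), where 7 were higher and 6 lower at an unadjusted p under 0.05 (backgrounds 12.1% and 13.1%). The 3 were Rbp7, which the detection filter admitted through the knockout CCl4 arrays alone and whose difference of 1.69 is given as a description, Khk, at 0.78 ± 0.17 (adjusted p = 0.0285), and Bco2, which cleaves carotenoids, at 1.05 ± 0.25 (adjusted p = 0.0323), detected on 1 of 3 wild-type and 3 of 3 knockout CCl4 arrays. With median scaling 3 were higher and 3 lower, and with no probe filter 0 were higher and 0 lower. Leaving out any 1 of the knockout CCl4 arrays, or wild-type CCl4 replicate 1, left 1 of the 3, which was Rbp7, and both Khk and Bco2 were lost. Bco2 was also lost without wild-type CCl4 replicate 2.

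Markers of several liver cell types moved with CCl4 beside the members, and their part in the members' changes was not tested. Over all genes, 18.9% rose and 18.6% fell with CCl4, which is the background of the marker counts here and in the next paragraph. Of 10 pericentral hepatocyte markers, 9 fell and 0 rose (median -1.35), and their summed intensity was 33925 in the wild-type and 35765 in the knockout vehicle array, 9319 to 18364 in wild type after CCl4 and 8435 to 9327 in the knockout after CCl4. Glul was detected on both vehicle arrays and on none of the 6 CCl4 arrays. Of the 10, Lgr5 was detected on the wild-type vehicle array alone and Rhbg on the knockout vehicle array alone. Each was tested only because that 1 array was high, so their falls are given as a description. In wild type alone 9 of the 10 fell and 0 rose (backgrounds 11.6% and 12.4%). In the knockout alone 7 fell and 1 rose (backgrounds 12.8% and 13%). Of 5 periportal markers tested, 3 fell (median -0.95), and the sums were 32036, 41868, 20798 to 38098 and 24040 to 28621 in the same order. None of the 7 general hepatocyte markers tested passed (median 0.03), with sums of 76774, 95176, 84244 to 96120 and 85614 to 89201. Between genotypes after CCl4, 0 of these 22 hepatocyte markers passed with limma, and 3 had an unadjusted p under 0.05 (background 25.2%).

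Among other cell types, 5 of 7 stellate cell and myofibroblast markers rose and Lrat fell, with sums of 2802 and 1987 with vehicle, 3963 to 5725 in wild type after CCl4 and 3215 to 3283 in the knockout after CCl4. Of the 7, Timp1 and Col1a1 were undetected on both vehicle arrays, so they were tested only because they were high after CCl4. Reln, at 10.43 to 11.84 on the log2 scale, was the brightest of the 7 on every array and weighs most in the sums. Of 5 macrophage markers 1 rose (background 18.9%), with sums of 3735, 4764, 5827 to 7663 and 4875 to 6783 in the same order of groups. Of 4 endothelial markers 1 rose (4622, 3386, 5363 to 5911 and 4185 to 4483), both neutrophil markers tested rose (458, 612, 1796 to 2494 and 1864 to 7488), and 1 of 2 erythroid markers fell (18913, 10992, 7612 to 17948 and 6738 to 11397). Afp, the fetal protein of the progenitor list, was undetected with vehicle and reached 9.14 to 12.60 after CCl4, while Krt19, Epcam and Krt7 and all adipocyte markers were left out by the detection filter or were not on the array. Between genotypes after CCl4, Afp (-2.75), Lyve1 (-0.84) and Stab2 (-0.59) were lower in the knockout. Col1a1, which was detected on the 3 wild-type CCl4 arrays alone and was tested only because it was high there, was at least 1.57-fold lower in the knockout, and no other marker passed. At an unadjusted p under 0.05 with limma, 4 of 4 endothelial, 3 of 7 stellate and 2 of 5 macrophage markers and Afp were lower in the knockout (background 13.1%). Both neutrophil markers were higher (background 12.1%), and 0 of 2 erythroid markers differed.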

How the data were processed

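Total RNA of 8 liver samples was copied into biotin-labelled cRNA for Illumina bead arrays, per the labels' protocols. The deposited non-normalized table holds a raw intensity and a detection p-value per probe and array, per the file headers, and the authors' second deposited table equals those intensities minus 1 constant per array. Scanner settings are not given in the sources used here. Platform annotation gave 23978 probes 1 symbol, 0 several and 1719 none, and 23962 matched a RefSeq gene. Intensities were normalized with neqc in limma 3.58.1 and R 4.3.3 (offset 16, with the noise read off the detection p-values), which corrects background, equalises quantiles and takes log2. Probes detected at p below 0.01 on every array of a group were kept (10128), the brightest on average was used per gene (7257 genes), and lmFit and eBayes were run on 4 group means. The spread comes from the 6 CCl4 arrays, whose number limits the precision. Groups follow the titles. Every member is named, and values per array are given for the member called between genotypes and the 12 with the smallest adjusted p for CCl4. Named pathway genes are those called with the 6 smallest p in either contrast, plus 4 set genes. Members and lists were chosen with earlier results of these data known. An "at least" fold sets the bright group's mean against the detection floor of the dim group's arrays, or the probe's own signal where that is higher. Alternatives covered scaling, background, probe filter and choice, variance model, replicate block and leaving out arrays.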

Additional observations from a re-analysis of the deposited data

Results flagged for a closer look

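For 3 members, every wild-type CCl4 array moved one way from the wild-type vehicle array and every knockout CCl4 array the other way from the knockout vehicle array, and the test of the difference in response did not pass for any of them. The share of all genes that meet this rule was not counted, so the 3 members are given as a description. For Akr1c6 the differences ran from -2.59 to -1.53 in wild type, and from 0.03 to 0.41 in the knockout, a difference in response of 2.33 (adjusted p = 0.073). For Aldh5a1 they were 0.19 to 0.68 and -0.58 to -0.42, a difference of -1.01 (adjusted p = 0.151). For Aldh16a1 they were 0.07 to 0.39 and -0.21 to -0.06, a difference of -0.35 (adjusted p = 0.553). Each rests on 1 vehicle array per genotype.

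Of the members left out of the test, 2 had signal after CCl4 and none with vehicle. The probe for Aldh18a1 was detected on 4 of the 6 CCl4 arrays (2 of each genotype) and on neither vehicle array, with a raw intensity of up to 109.2. A probe for Aldh1a2 was detected on 1 CCl4 array, knockout replicate 3, where the highest raw intensity over the CCl4 arrays was 95.1, and its other probe was detected on none.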

How the results depend on the processing

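Between genotypes after CCl4, 1 member passed in the fit reported, 3 under median scaling, 2 without background correction, 0 with no probe filter (8 of 24 at an unadjusted p under 0.05 in the fit reported, where 25.2% of all genes had one), 3 with a trended, robust variance and 1 to 2 without 1 array (2 without wild-type CCl4 replicate 2 or 3). The count for CCl4 as the mean response was 13, and 8 to 14 without 1 array (8 without either vehicle array). It was 10 to 15 under the alternatives that keep all arrays. In wild type it was 8, and 8 to 14 without 1 array. In the knockout it was 8, with 5 under no probe filter and 4 to 10 without 1 array. For the difference in response it was 0, with 1 (Akr1c6) without background correction, 1 with the trended, robust variance and 0 to 1 without 1 array. With the wild-type vehicle array left out, the mean response of Akr1c6 reversed to 0.17 (adjusted p = 0.745), which by construction is the knockout's response, and without the knockout vehicle array it was -2.16. Otherwise the cause of these changes was not tested.

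Same-numbered CCl4 arrays of the genotypes correlated at -0.12, -0.11 and -0.01 in their deviations from the group means, and differently numbered ones at -0.01 to 0.13. The labels used here do not say what the replicate numbers stand for, so whether they pair the arrays is not known. With a replicate block, 1 member passed between genotypes, 12 for the mean response to CCl4, 8 in wild type, 5 in the knockout and 0 for the difference in response. Over all genes, the genotype count of 471 became 875 under median scaling, 203 with the authors' second table, 107 with no probe filter and 122 to 795 without 1 array. The difference in response called 26 genes, and 39, 49, 76 and 1 under median scaling, no background correction, trended variance and no probe filter. Median scaling moved the median of all genes by -0.16 between genotypes and by 0.11 for CCl4 in wild type, and the authors' second table moved it by -0.11 for the mean response, so member differences under those settings are relative to these shifts. Members near background (Akr1c18, Akr1d1, Akr1c6 and Aldh3b1) are limited by signal.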
